A study of Mus musculus with 4 samples.

Results

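The late cornified envelope (Lce) genes are a tight family in the epidermal differentiation complex, the stretch of mouse chromosome 3 that carries most structural genes of the outer epidermis. Their small proteins are joined by transglutaminases to the cornified envelope, the shell that replaces the cell membrane as keratinocytes of the granular layer die. In human skin, LCE1 genes are known as genes of normal epidermis and LCE3 genes as genes that appear after barrier injury and in psoriasis. The members described here are 4 Lce3 genes (Lce3a, Lce3b, Lce3c and Lce3f) and 6 Lce1 genes (Lce1a1, Lce1b, Lce1f, Lce1g, Lce1i and Lce1m), 10 of the 18193 genes measured. They were chosen by their array signals, with their difference between MC903 and Control skin already known, so that difference is given as a description, without a test.

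Transcripts were measured on 3′ expression arrays in 2 groups of mouse skin. The MC903 group (n = 2 arrays) is skin to which MC903, or calcipotriol, had been applied, an analogue of vitamin D used to inflame mouse skin. The Control group (n = 2 arrays) is skin that received the vehicle, ethanol (EtOH). All mice were female wild type BALB/c, sensitised beforehand by ovalbumin (OVA) together with MC903 on the ear and given OVA by mouth before and after the treatment, so the Control animals had also met MC903 earlier. Age, the treated body site and whether each array is its own animal are not given in the sources used here. Any range over arrays or pairings is between these arrays only and may be technical. Each ± is the standard error (SE) of the limma fit with a constant prior, described below. That fit also draws on the variance of all genes, so the SE is not a spread of these arrays alone.

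On each array the deposited signals had a mean of 500.0 once the highest and lowest 2% of probe sets were left out, and the array medians were 90.2 and 99.6 in MC903 and 109 and 99.7 in Control. Bacterial control probe sets (TrpnX) reached 24.0 and serve as a guide to background. Skin markers were present: all 7 basal and all 8 suprabasal keratinocyte markers had signals above that level on at least 1 array. For all 14 measured hair shaft and follicle markers, each MC903 array was below each Control array, as for 28.2% of all genes. Their summed signals were 4710 and 3710 in MC903 and 29881 and 51280 in Control. In whole skin, fewer cells of a type and less RNA per cell cannot be told apart.

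The Lce3 and Lce1 genes differ in the DNA just upstream of their annotated starts. Whether these sequences bear on the array signals was not tested. RefSeq sequences of GRCm38.p6 were found for 9 of the 10 members, all but Lce1f. The last 110 bases before the start are printed for the 4 Lce3 members and for 3 Lce1 members, each 5′ to 3′ on the gene's own strand. Capitals mark the TATA box letters ATAAAA and a C/EBP motif, TTNNGNAA. C/EBP factors are transcription factors of differentiating and inflamed epidermis. The stretches lie at chr3:92926231-92926340 (minus strand) for Lce3a, chr3:92932869-92932978 (plus) for Lce3b, chr3:92944376-92944485 (plus) for Lce3c, chr3:92992107-92992216 (plus) for Lce3f, chr3:92648308-92648417 (minus) for Lce1a1, chr3:92778900-92779009 (minus) for Lce1i and chr3:93019062-93019171 (minus) for Lce1m.
Lce3a: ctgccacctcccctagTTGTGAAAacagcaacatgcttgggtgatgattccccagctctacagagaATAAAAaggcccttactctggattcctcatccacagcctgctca
Lce3b: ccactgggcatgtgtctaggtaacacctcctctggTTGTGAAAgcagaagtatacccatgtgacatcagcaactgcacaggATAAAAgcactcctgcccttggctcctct
Lce3c: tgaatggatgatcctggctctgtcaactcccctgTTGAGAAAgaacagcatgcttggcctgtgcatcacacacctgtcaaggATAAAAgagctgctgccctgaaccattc
Lce3f: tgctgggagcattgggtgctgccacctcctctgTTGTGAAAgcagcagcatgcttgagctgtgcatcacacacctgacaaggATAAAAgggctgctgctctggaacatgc
Lce1a1: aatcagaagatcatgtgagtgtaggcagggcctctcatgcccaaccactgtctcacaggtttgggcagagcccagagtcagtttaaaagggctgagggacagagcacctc
Lce1i: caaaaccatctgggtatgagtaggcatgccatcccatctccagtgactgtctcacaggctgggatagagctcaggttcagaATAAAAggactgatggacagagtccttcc
Lce1m: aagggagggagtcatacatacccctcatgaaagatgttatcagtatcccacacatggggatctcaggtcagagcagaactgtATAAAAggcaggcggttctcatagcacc

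Upstream windows resembled those of their own group more than those of the other, except for Lce1m. Over the 250 bases upstream, aligned globally, the 6 pairs of Lce3 members had a median identity of 54.3% and the 20 pairs of an Lce3 with an Lce1 member a median of 48.7%. The 10 pairs of Lce1 members had a median of 63.2% and reached 85.6%, but Lce1m matched the other 4 by at most 50%. Promoter identity is a property of the sequence alone and carries no test.

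Both groups share the TATA box letters ATAAAA on the gene strand, present in 6 of 6 Lce3 genes and 12 of 13 Lce1 genes with a window, against 10.2% of 32851 mouse upstream windows of the same length. Lce1a1 is the exception. In 5 of 6 Lce3 genes these letters start 28 to 30 bases before the annotated start, and in Lce3a 44 bases before it. The C/EBP motif TTNNGNAA, searched on both strands, was found in 6 of 6 Lce3 genes and in 2 of 13 Lce1 genes (Lce1j and Lce1k, which are not members), against 36.85% of all windows. In the Lce3 genes a match starts 75 to 94 bases before the start. The longest word held by 5 of 6 Lce3 windows, AGGATAAAAG, overlaps the TATA box letters and was found in 0.0548% of all windows. No Lce3 window held the AP-1 motif TGANTCA or AGGTCA, which is only a part of the vitamin D receptor motif. Nor did any hold the direct repeat of AGGTCA with a gap of 3 bases. In the same order, these were in 6.75%, 14.0% and 0.00609% of all windows. Of the 5 Lce1 members with a window, 0 held the AP-1 motif and 1, Lce1m, held AGGTCA. Among all 13 Lce1 genes, AGGTCA was in 4 windows, those of Lce1c, Lce1d, Lce1k and Lce1m. The AP-1 motif and the direct repeat were in 0 of the 13. The other motifs searched on both strands, STAT (TTCNNNGAA), STAT6 (TTC and GAA with a gap of 4 bases), GRHL (AACCNGTT) and NF-kB (GGGA and TTTCC with a gap of 1 base), were in none of the 9 member windows and in 7.02%, 5.85%, 1.79% and 0.356% of all, and KLF (CACCC) was in 2 Lce3 and 1 Lce1 member window and in 52.0% of all. Counting all 6 Lce3 and 13 Lce1 genes, STAT was in 1 window, that of Lce1l, and KLF in 2 Lce3 and 5 Lce1 windows. A match describes letters only, and the windows are short.

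**Figure D1:**
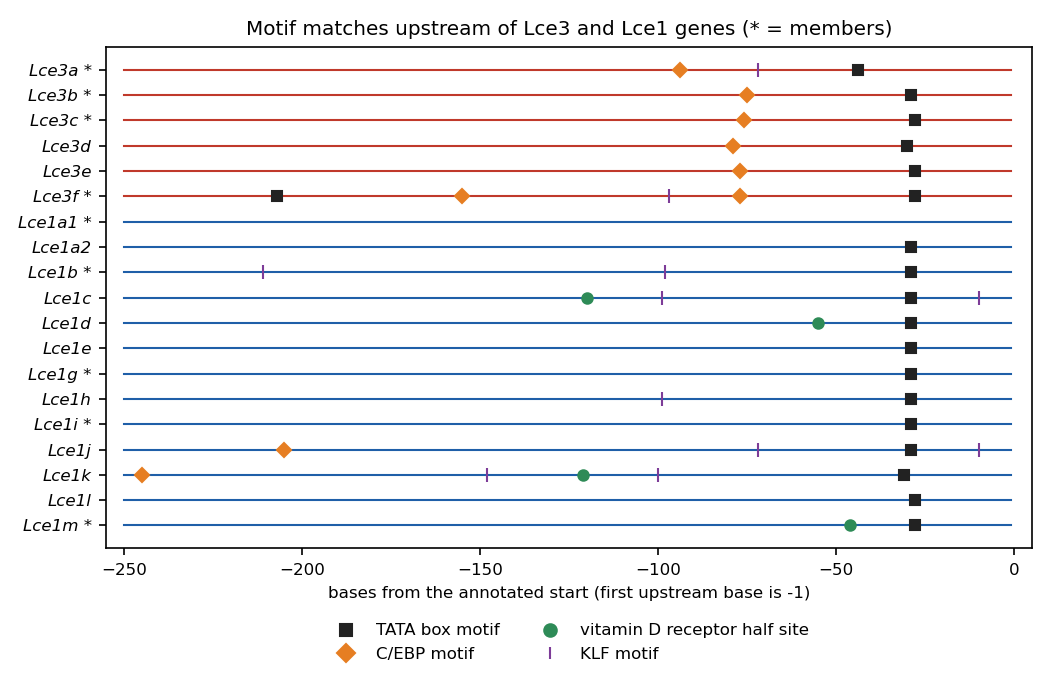
Matches of 4 motifs in the 250 bases upstream of 6 Lce3 (red lines) and 13 Lce1 genes (blue lines), by distance in bases from the annotated start; asterisks mark members. Every Lce3 line has a C/EBP match 75 to 94 bases upstream, and the line of Lce1a1 has no match of the 4 motifs.

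All 4 Lce3 genes had far higher signals in MC903 skin. Lce3f (probe set 1456248_at) stood at 5406 and 2715 in MC903 and at 143 and 164 in Control. Lce3a (1456001_at) stood at 1498 and 651 in MC903 and at 24.0 and 56.6 in Control, where the lower value lies at the level of the highest TrpnX control. For both genes each MC903 array was above each Control array by a wide margin, and MC903 replicate 1 was the higher of its pair.

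Lce3c (1419317_x_at) stood at 8299 and 5611 in MC903 and at 399 and 496 in Control. Lce3b (1429641_x_at) stood at 2261 and 1553 in MC903 and at 322 and 234 in Control. Again the groups were far apart, with the same MC903 array on top. The suffix of both probe sets marks possible cross-hybridisation with related transcripts, as do those of Lce1i and Lce1m below. Lce3d and Lce3e lie between Lce3c and Lce3f on the chromosome and have no probe set named for them alone, so how far their transcripts reach these signals was not tested.

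On the log2(signal + 16) scale, which understates the change of dim genes, the MC903 minus Control difference was 4.51 ± 0.37 for Lce3f (SE of the limma fit, n = 2 arrays per group here and below). It was 4.22 ± 0.52 for Lce3a, 3.89 ± 0.26 for Lce3c and 2.70 ± 0.28 for Lce3b. These are ratios of 22.7, 18.7, 14.8 and 6.50 on that scale. Among all genes ordered from the highest difference down, the 4 held places 16, 20, 25 and 57. The differences of Lce3f, Lce3a and Lce3c lay within their spread of one another: over the 4 pairings of an MC903 with a Control array they ran from 3.93 to 5.09, 3.20 to 5.24 and 3.46 to 4.33. Those of Lce3b ran from 2.21 to 3.19, below every pairing of the other Lce3 members on this scale, though only just below the lowest of Lce3a.

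Both MC903 arrays were above both Control arrays for 4 of 4 Lce3 genes and for 21.6% of all genes, and the Lce3 genes were at least 4-fold higher in all 4 pairings, as were 0.247% of all genes. The median difference of the 4 was 4.06, against -0.04 over all genes. It was 4.49 in MC903 replicate 1 and 3.62 in MC903 replicate 2, each against the Control mean. The list of members was drawn up with these differences in view, so the counts describe the choice.

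**Figure D2:**
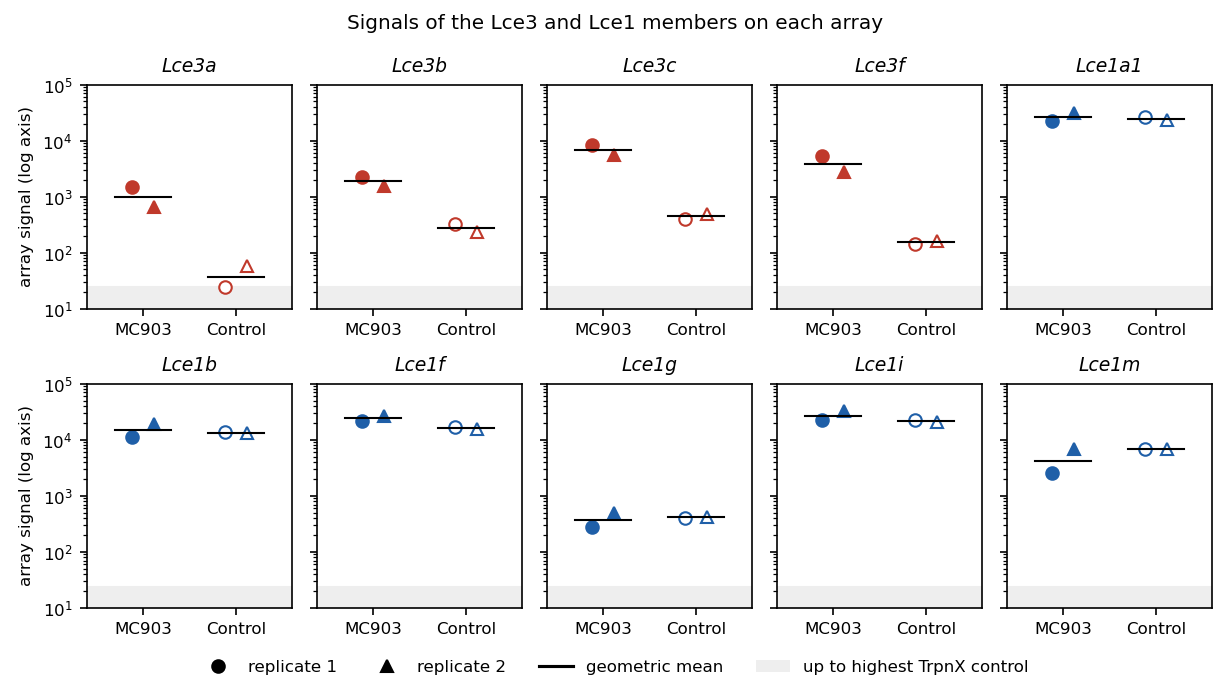
Array signal (log axis) of each member in MC903 and Control skin, with a circle for replicate 1, a triangle for replicate 2, a line at the geometric mean, and grey up to the highest TrpnX control (24.0). The Lce3 panels (red) have MC903 signals of 651 to 8299 and Control signals of 24.0 to 496, and the Lce1 panels (blue) show groups that lie close together or overlap.

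The Lce1 members, in contrast, had similar signals in both groups, and no common direction. The median difference of the 6 was 0.14, which became -0.03 with quantile normalization, -0.17 without MC903 replicate 2 and 0.45 without MC903 replicate 1. The single differences ran from -0.69 to 0.56. For 2 of 6, Lce1f and Lce1i, both MC903 arrays were above both Control arrays (21.6% of all genes), for 0 of 6 both were below (28.2% of all genes), and for 4 of 6 the groups overlapped. The difference was above 0 for 4 of the 6, but only for 2 of them with quantile normalization.

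Lce1f (1420550_at) stood at 21767 and 27049 in MC903 and at 17192 and 15749 in Control, a difference of 0.56 ± 0.19. Its other probe set (1449902_at), with signals of 4070 and 7936 in MC903 and 3374 and 2957 in Control, gave 0.84. Lce1i (1420741_x_at) stood at 22638 and 32247 in MC903 and at 22625 and 20507 in Control. The Lce1i groups are apart only by the narrow gap between MC903 replicate 1 and Control replicate 1, and the difference was 0.33 ± 0.23. It was 0.072 without MC903 replicate 2 and 0.58 without MC903 replicate 1.

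Lce1a1 (1420676_at) stood at 22673 and 31046 in MC903 and at 25782 and 23335 in Control, a difference of 0.11 ± 0.22 that became -0.02 with quantile normalization. The other probe set of Lce1a1 gave 0.28. Lce1b (1419409_at) stood at 11328 and 19509 in MC903 and at 13628 and 12985 in Control, a difference of 0.16 ± 0.31 that became -0.03 with quantile normalization. Without MC903 replicate 2 the differences were -0.11 for Lce1a1 and -0.23 for Lce1b. In Lce1b both Control arrays lay between the MC903 arrays, and in Lce1a1 likewise. The highest signals of Lce1i, Lce1a1, Lce1f and Lce1b were 68.8%, 66.3%, 57.7% and 41.6% of the highest on their array, and how far differences are compressed at such signals was not tested.

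Lce1g and Lce1m had lower means in MC903, each resting on MC903 replicate 1. Lce1g (1421316_at) stood at 273 and 489 in MC903 and at 405 and 419 in Control, a difference of -0.17 ± 0.31 that became 0.24 without MC903 replicate 1. Lce1m (1429565_s_at), which lies apart from the other Lce1 genes on the far side of the Lce3 block, stood at 2564 and 6770 in MC903 and at 6724 and 6759 in Control. Its difference was -0.69 ± 0.50, and 0.01 without MC903 replicate 1. The groups overlapped for both genes.

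Of 18 further Lce symbols listed, 5 genes were measured, all of the Lce1 group, and limma called 0 of 5 with either prior variance (0% of all genes with a constant prior, and 0.539% higher and 0.385% lower with a prior that follows the signal). At an unadjusted p under 0.05 the count was also 0 of 5. Their median difference was 0.22. Lce1h stood at 16191 and 31260 in MC903 and at 15387 and 14451 in Control, a difference of 0.59 ± 0.36 (limma, adjusted p = 0.493). Lce1a2, Lce1d and Lce1c differed by 0.31 ± 0.25, 0.22 ± 0.26 and 0.19 ± 0.23. These values rest on MC903 replicate 2: without it the difference was 0.12 for Lce1h, 0.035 for Lce1a2, -0.097 for Lce1d and -0.049 for Lce1c, and the median of the 5 was -0.049. The probe sets of Lce1h and Lce1d carry the suffix of possible cross-hybridisation. Lce1l stood at 1016 and 4652 in MC903 and at 2143 and 2575 in Control, so that its difference of -0.11 ± 0.76 hides opposite movements in the MC903 arrays. It was 0.98 without MC903 replicate 1 and -1.20 without MC903 replicate 2.

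Within the MC903 group, the Lce3 and Lce1 genes went opposite ways. MC903 replicate 1 was above replicate 2 for 4 of 4 Lce3 members, by 0.54 for Lce3b, 0.56 for Lce3c, 0.99 for Lce3f and 1.18 for Lce3a on the log2(signal + 16) scale. It was below replicate 2 for 6 of 6 Lce1 members, by a median difference of -0.65, and for all 11 Lce1 genes measured (range -2.18 to -0.31). Over all genes, replicate 1 was above in 48.1% and below in 51.9%, with a median of -0.02. The Control arrays showed no complete split of this kind. Control replicate 1 minus replicate 2 lay between -0.86 and 0.44 for the Lce3 members (median -0.24). For the Lce1 members it lay between -0.05 and 0.14 (median 0.10). The comparison sets 1 array against 1, so it has no test, and replicate numbers carry no order.

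Several marker lists differed between the MC903 arrays in the same directions. Summed signals of the 5 measured neutrophil markers were 64659 and 10364 in MC903 replicates 1 and 2 against 896 and 1381 in the Control arrays, and all 5 were higher in replicate 1. Most of the MC903 sums came from S100a8, at 36943 and 5891, and S100a9, at 26482 and 4081, which are genes of both neutrophils and keratinocytes. Summed signals of the 5 macrophage markers were 29034 and 13476 in MC903 against 10478 and 9158 in Control, also with all 5 higher in replicate 1. Like the Lce1 genes, the 7 skeletal muscle markers were all lower in MC903 replicate 1, with sums of 9637 and 31952 in MC903 against 38335 and 21699 in Control. The 5 sebaceous and 4 adipocyte markers were also all lower in replicate 1, with sums of 56114 and 69587 and of 16752 and 22973 in MC903, against 59254 and 57872 and against 12677 and 11240 in Control. Of the 8 suprabasal keratinocyte markers, 2 were higher in replicate 1 and 6 lower, and of the 7 basal markers 4 were higher. Other lists were mixed in replicate 1: 7 higher and 7 lower for hair, 4 and 2 for fibroblasts, and 1 and 4 for melanocytes. T cell markers had 3 higher and 2 lower, and endothelial and mast cell markers 2 and 2 each. No marker was at 0. The part of these cell types in the Lce signals was not tested.

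**Figure D3:**
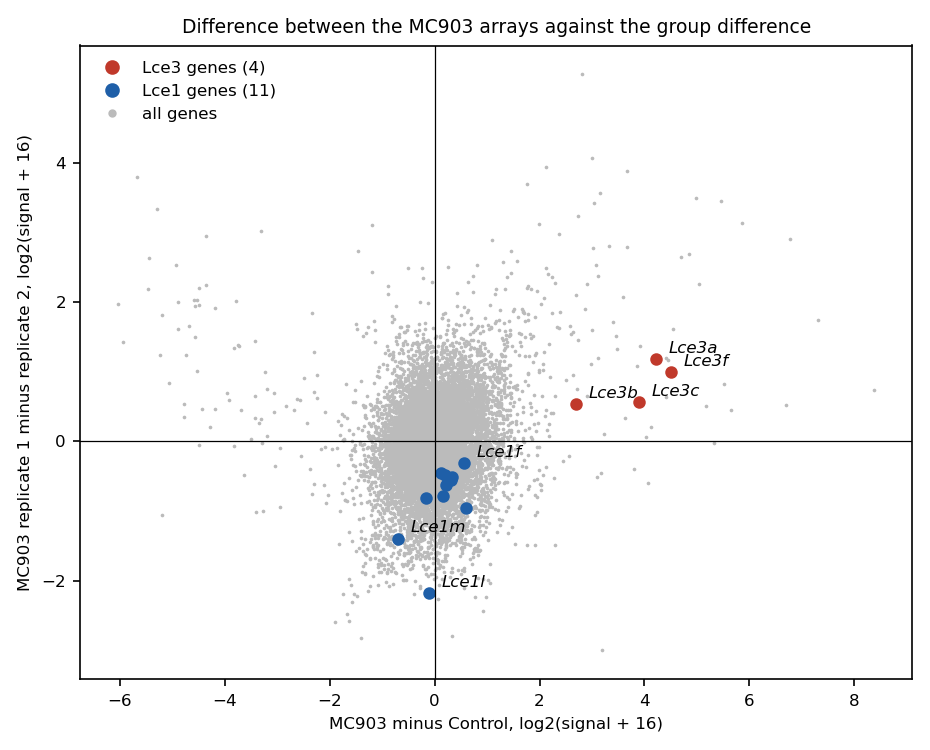
For every gene (grey), the MC903 minus Control difference (horizontal axis) against MC903 replicate 1 minus replicate 2 (vertical axis), both on the log2(signal + 16) scale. The 4 Lce3 genes (red) lie at 2.70 to 4.51 across and above 0, and the 11 Lce1 genes (blue) lie near 0 across and between -2.18 and -0.31 down the page.

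The Lce3 genes form a sharp block in the gene order of the complex. In RefSeq's order of protein-coding genes (GRCm38.p6, used only for neighbours), the neighbour before Lce3a is 2310050C09Rik, with a difference of 0.36, and the neighbour after Lce3f is Crct1, a cysteine-rich gene of the complex, with 0.59. Kprp, a proline-rich keratinocyte gene that lies among the Lce1 genes, differed by 0.61. From Lor, the gene of loricrin, to S100a10, a gene of the S100 family, 37 of 53 protein-coding genes were measured. The other genes of that stretch with differences above 2 were Sprr2d, Sprr2f, Sprr2h, Sprr2i, Sprr2k and Sprr1b, small proline-rich envelope genes, and Rptn, the gene of repetin, at 4.08 ± 0.28. In the other direction, Prr9, a proline-rich gene next to Lor, differed by -2.24 ± 0.41. Ivl, which encodes the envelope scaffold involucrin, stood at 6110 and 9764 in MC903 and at 3528 and 3565 in Control. Flg, the gene of filaggrin, had its higher MC903 value, 17784, in replicate 2, against 7333 in replicate 1. A higher replicate 2 was not particular to the Lce1 genes and Flg: Lor, Ivl, Kprp, Crct1, Hrnr and Rptn had it too. Sprr2d, Sprr2f, Sprr2h, Sprr2i and Sprr2k were higher in replicate 1. Of the 42 envelope and differentiation genes below, 26 were higher in replicate 2 (51.9% of all genes) and 16 in replicate 1 (48.1%).

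**Figure D4:**
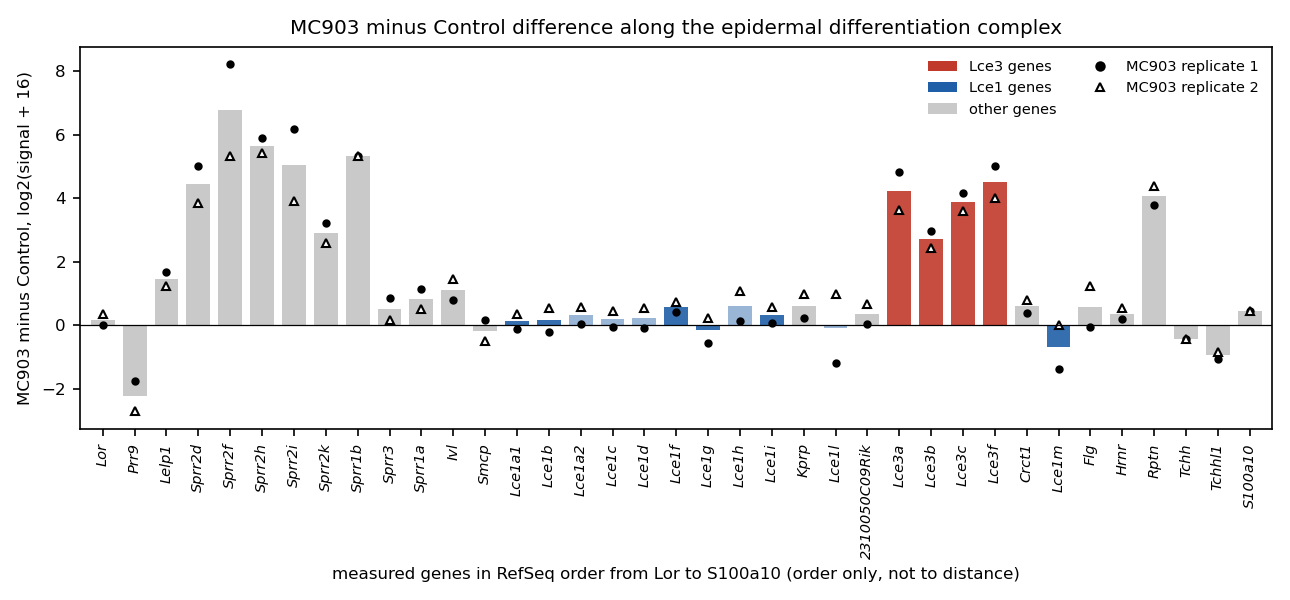
MC903 minus Control difference on the log2(signal + 16) scale for the 37 measured genes from Lor to S100a10, in gene order; bars are group differences (paler for Lce1 genes that are not members), and points are each MC903 array against the Control mean. The 4 Lce3 bars reach 2.70 to 4.51 between neighbours at 0.36 and 0.59, while the Lce1 bars stay between -0.69 and 0.59, with replicate 2 (triangles) above replicate 1 (circles) in every Lce1 gene.

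Among 42 measured genes of the cornified envelope and terminal differentiation, Lce genes apart, the median difference was 0.60, against -0.04 over all genes. Both MC903 arrays were above both Control arrays for 30 (21.6% of all genes) and below for 2 (28.2%). limma with a constant prior called 0 of the 42 (0% of all genes). At an unadjusted p under 0.05, 21 were higher (6.82% of all genes) and 1 lower (8.39% of all genes). With a prior that follows the signal it called 13 higher (0.539% of all genes) and 0 lower (0.385%), and the 13 came to 2 when Control replicate 1 or Control replicate 2 was left out. Sprr2f, Sprr2h, Sprr1b and Sprr2i had the largest differences, 6.77 ± 0.999, 5.65 ± 0.21, 5.33 ± 0.29 and 5.05 ± 0.78. Their limma adjusted p was 0.159, 0.0561, 0.0765 and 0.171 with the constant prior, to which the SE belongs. With a prior that follows the signal, limma gave adjusted p = 0.0395, 0.0017, 0.00378 and 0.0458. At the other end were Scel (sciellin, an envelope precursor) at -0.05 ± 0.17, Ppl (periplakin, which links envelope and keratin filaments) at -0.22 ± 0.20, Tchh (trichohyalin of the hair root sheath) at -0.43 ± 0.28 and its relative Tchhl1 at -0.95 ± 0.20, none of them called. This list was drawn up with results of these data known, and the genes of the complex named before it were chosen after their values were seen.

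Of 29 measured transcription regulators of keratinocyte differentiation and stress, limma called 0 with either prior. The shares over all genes were 0% with a constant prior, and 0.539% higher and 0.385% lower with a prior that follows the signal. At an unadjusted p under 0.05, 4 were higher (6.82% of all genes) and 3 lower (8.39% of all genes). Both MC903 arrays were above both Control arrays for 9 of the 29 (21.6% of all genes) and below for 8 (28.2% of all genes), and the median difference was 0.07. Fosl1 and Junb, subunits of the AP-1 factor, differed by 1.63 ± 0.36 and 0.85 ± 0.29, and Stat3, a signal transducer of cytokine receptors, by 0.74 ± 0.21. Notch1, a receptor that drives suprabasal commitment, differed by -0.76 ± 0.24, and the transcription factors Tfap2a and Maf by -0.52 ± 0.21 and -0.51 ± 0.15.

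The genes outside the family whose profile over the 4 arrays came nearest to the mean Lce3 profile were Wfdc12, Reg3g, Alox8, Lpo and Krt16, at Euclidean distances of 0.40, 0.48, 0.51, 0.60 and 0.60 between centred log2(signal + 16) values. The Lce3 members themselves lay 0.20 (Lce3c), 0.65 (Lce3a), 0.69 (Lce3f) and 1.24 (Lce3b) from it. Wfdc12, of a family of small secreted protease inhibitors, stood at 3627 and 2883 in MC903 and at 231 and 262 in Control. Reg3g, an antibacterial lectin, stood at 715 and 267 in MC903 and at 8.56 and 21.3 in Control, both within the range of the TrpnX controls. Lpo, a peroxidase, stood at 338 and 324 in MC903 and at 5.19 and 5.09 in Control, also both within that range. The added 16 therefore sets much of the profiles of Reg3g and Lpo. Alox8 encodes a lipoxygenase of mouse skin, and Krt16 a keratin of wounded epidermis. Nearest to the mean Lce1 profile were Chrna6, Hivep2, C2cd2, Krt12 and Ankrd24, at distances of 0.03 to 0.07, all with differences of 0.04 to 0.07, and the Lce1 members lay 0.12 to 0.89 from it. The signals of Chrna6, 15.6 and 35.5 in MC903 and 24.7 and 21.6 in Control, lay at the level of the TrpnX controls. With 4 arrays, likeness of profile is a description.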

How the data were processed

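Skin RNA (200 ng per sample) went through biotin labelling for 3′ arrays, per the labels' protocols. The deposited intensity values are linear signals of 45101 probe sets on 4 arrays, 2 MC903 and 2 Control. The sources used here do not give the software that made them, and they carry no detection calls. Tested on the values, the deposited intensity had been scaled to a trimmed mean but not quantile normalized. The number of arrays limits the precision.

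Probe sets were named from the platform annotation, with symbols updated by gene ID through RefSeq's table (34741 of 34945 with 1 symbol matched). Another 932 had several symbols, 9160 were unlisted and 64 were controls, and none of these were used. Each gene took the probe set with the highest mean log2(signal + 16). The highest mean linear signal had been run first and called 5 genes. The log2 mean, as in earlier work on these data, was adopted after that count had been seen, and all members keep the same probe set under both.

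The test was limma 3.58.1 (R 4.3.3), lmFit followed by eBayes, with a constant prior or one that follows the signal, and Benjamini-Hochberg adjustment over 18193 genes at a threshold of 0.05. There were 2 residual degrees of freedom, with 2.32 prior degrees of freedom for the constant prior and 3.72 for the prior that follows the signal. The fit was tested on simulated data. Upstream windows were aligned with Biopython 1.88.

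The members, lists and settings were chosen with earlier results of these data known. Named genes were all members and other measured Lce genes, the 4 most positive and 4 most negative of the envelope list, 3 and 3 of the regulators, the 5 nearest profiles to each group, and the 2 largest absolute differences of each marker list. Alternatives covered the prior, scaling, added constant, filter, choice of probe set, replicate block and leaving out each array.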

Additional observations from a re-analysis of the deposited data

How the results depend on the processing

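The Lce3 differences stayed above 0 in all 51 values over 13 alternatives (2.43 to 5.0). These values, and those of the Lce1 members below, include settings that cannot change a difference, namely the filters and the replicate block. Nor can the choice of probe set change it where a gene has only 1, as the Lce3 members do. The median Lce3 difference was 3.56 with log2(signal + 64) and ran from 3.62 to 4.49 with 1 array left out. When the dimmest 50% of genes were left out, Lce3a was no longer among the genes tested. Of 78 values of Lce1 members, 6 changed sign: Lce1a1 and Lce1b to -0.021 and -0.033 with quantile normalization and to -0.11 and -0.23 without MC903 replicate 2, and Lce1g and Lce1m to 0.24 and 0.0060 without MC903 replicate 1. With 1 array left out, the ranges were -0.11 to 0.34 for Lce1a1, -0.23 to 0.55 for Lce1b, -0.57 to 0.24 for Lce1g and -1.39 to 0.0060 for Lce1m. The Lce1 median was -0.027 with quantile normalization and ran from -0.17 to 0.45 with 1 array left out. The cause was not tested.

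limma called 0 of 18193 genes with a constant prior (1241 higher and 1526 lower at an unadjusted p under 0.05), 0 with a robust prior or log2(signal + 1), 0 with the replicate block and 0 with any array left out. It called 168 with a prior that follows the signal, 3 with quantile normalization, 17 with centring on array medians, 70 with log2(signal + 64), 42 and 177 without the dimmest 25% and 50% of genes, 12 with the mean over probe sets and 5 with the probe set of the highest mean linear signal. For the envelope list the same 8 settings gave 13, 1, 3, 6, 5, 12, 2 and 1. With the prior that follows the signal and 1 array left out, added after seeing the data, the counts over all genes were 227 and 946 without MC903 replicates 1 and 2, and 15 and 5 without Control replicates 1 and 2. They ran from 2 to 18 for the envelope list, 0 to 2 for the regulators and 0 to 1 for the other Lce genes.

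Of all genes 9044 did not overlap between groups, 3921 higher and 5123 lower, and 5392 higher and 3326 lower with centring on array medians, which shifted the median of all genes by 0.12. Without the dimmest 50% of genes the count was 5100 of the 9097 genes left. With 1 array left out it ran from 12959 to 14350 of 18193. There 1 group has only 1 array, so the rule is met more easily and these counts cannot be set against 9044. The replicate numbers are not said to pair the arrays, and the deviations of same-numbered arrays correlated at -0.06. The replicate block left each difference as it was.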

Other observations

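Signals of the neutrophil and macrophage marker genes differed widely between the MC903 arrays. MC903 replicate 1 minus replicate 2 had medians of 1.73 and 1.22 on the log2(signal + 16) scale. The T cell and mast cell markers had medians of 0.42 and 0.17, with T cell markers from -1.54 to 0.50. The neutrophil and keratinocyte alarmins S100a8 and S100a9 stood at 36943 and 5891 and at 26482 and 4081 in MC903 replicates 1 and 2, against 422 and 732 and against 253 and 466 in Control. The macrophage genes Mrc1 and Itgam differed by 1.43 ± 0.58 and 1.43 ± 0.61 on the log2(signal + 16) scale (MC903 minus Control, SE of the limma fit, n = 2 arrays per group). The T cell receptor subunits Cd3d and Cd3e differed by 1.26 ± 0.36 and 0.997 ± 0.341, and the mast cell genes Tpsb2 and Kit by 0.53 ± 0.23 and -0.34 ± 0.17.

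Hair and pigment genes had lower signals in both MC903 arrays than in either Control array, as did 28.2% of all genes. The hair keratin Krt33b stood at 17.9 and 54.7 in MC903 and at 1189 and 2679 in Control, and Krt86 at 87.2 and 58.9 in MC903 and at 1284 and 2787 in Control. The pigment genes Tyrp1 and Tyr differed by -1.39 ± 0.25 and -1.30 ± 0.22. The sebaceous genes Scd3 and Elovl3 overlapped between groups, at -0.49 ± 0.51 and 0.18 ± 0.45, and so did the muscle genes Mylpf and Tnni2, at -1.01 ± 0.65 and -0.93 ± 0.64. In the basal layer Dst and Krt15 differed by -0.65 ± 0.15 and -0.57 ± 0.15, while of the suprabasal genes Krt1 and Tgm3 differed by 1.30 ± 0.17 and 1.13 ± 0.37. The collagens Col1a1 and Col1a2 differed by -0.70 ± 0.17 and -0.46 ± 0.17, the adipocyte genes Cidec and Adipoq by 0.87 ± 0.43 and 0.82 ± 0.30, and the endothelial genes Cdh5 and Pecam1 by 0.55 ± 0.19 and 0.53 ± 0.28.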
